A study of Caenorhabditis elegans with 3 samples.

Results

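Argonaute proteins bind small RNAs and use them to find the RNAs they silence or protect. In Caenorhabditis elegans the family is large. The main microRNA Argonautes, ALG-1 and ALG-2, act throughout the body. In contrast, the Piwi protein, many of the worm-specific WAGO proteins and CSR-1 act mainly in germ cells. There RNA-dependent RNA polymerases such as EGO-1 copy target RNAs into the secondary small RNAs that many of these Argonautes carry. The set described here holds 10 genes, given by name: the Argonaute genes wago-1, prg-1, csr-1, ergo-1, ppw-1, ppw-2, alg-1, alg-2 and rde-1, and the polymerase gene ego-1. From knowledge of the worm, 7 were grouped as germline or maternal (prg-1, wago-1, csr-1, ppw-1, ppw-2, ergo-1 and ego-1) and 3 as broadly expressed (alg-1, alg-2 and rde-1). Of the 10 genes, 8 had a probe of their own, among 14686 named genes measured on every array. Both probes of ppw-1 were shared with its close relative sago-2 and were not used for it; ppw-1 and ppw-2 were not analysed here.

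RNA of glp-4 animals at the third larval stage (L3) was compared with an RNA labelled as a mixed wild-type reference. Each of preps 1, 3 and 4 was hybridised to its own two-colour array. Mutants of glp-4, a gene for the valyl-tRNA synthetase, are known for germ cells that hardly multiply at the restrictive temperature. The labels give no allele or temperature and do not say what the reference mixes. Genotype and stage differ together, so an effect of either cannot be told apart. Nothing says that the preps came from separate cultures, so the p-values speak to the spread of these 3 samples alone, and that spread may be technical. Values are log2 ratios centred on each array's median, read as glp-4 L3 divided by reference. The labels name no dye, so this is the likely direction: glp-4 is channel 2, and germ cell genes would lie on the low side. This reading therefore partly set on which side germline genes fall. If the ratio ran the other way, every direction below would turn and the sizes would stand.

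The 3 arrays differed in spread, with a median absolute deviation of the deposited log2 ratios of 0.38 for prep 1, 0.66 for prep 3 and 0.84 for prep 4. They were positively correlated over all probes, with Pearson's r of 0.64 between preps 1 and 3, 0.60 between preps 1 and 4, and 0.83 between preps 3 and 4. The titles of the arrays hold a letter code, taken as an array series, and an apparent date, and both set prep 1 apart from preps 3 and 4. Of 16 germ cell markers measured, 16 were below 0 on every array and 14 were lower past the threshold (limma, Benjamini-Hochberg adjusted p under 0.05), led by him-3, of the meiotic chromosome axis, at -2.99 ± 0.19 (SD, n = 3) and pgl-1, of P granules, at -2.61 ± 0.23. All 10 oocyte markers were lower, with a list median of -3.92, and all 7 intestine markers were higher, with a median of 2.42. Of the muscle markers 7 of 9 were higher (median 1.38), and of the neuron markers 1 of 7 was lower (median -0.05). Of the sperm markers 5 of 12 were lower (median -0.65), led by msp-56 at -3.89 ± 0.38. These 5 include several msp genes, close copies of each other whose probes cannot be read as separate. By the same rule 8.37% of all features were lower and 8.26% higher, and 29.4% were below 0 on every array. The 1 neuron call is therefore no result about that list. Without prep 3 only 2 germ cell markers passed, when 1.08% of all features were called lower. All 10 oocyte markers passed whichever single prep was left out. In RNA of whole animals, fewer cells of a type and less RNA per cell cannot be told apart.

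Among the 8 measured genes of the set, 4 were lower in glp-4 L3 and none was higher (limma adjusted p under 0.05; at an unadjusted p under 0.05 the counts were also 4 and 0). Over all 19580 features tested, 8.37% were lower and 8.26% were higher by the adjusted rule. At the unadjusted limma p under 0.05, 3560 of the 19580 features were lower and 3354 higher. All 4 were germline genes, wago-1, ego-1, csr-1 and ergo-1, with a mean of 8.88-fold lower for wago-1 and 1.60-fold lower for ergo-1. The fifth germline gene, prg-1, and the 3 broadly expressed genes did not pass. The count depended on the arrays used: without prep 3 none of the 8 passed, although the features called lower also dropped to 1.08% of all tested, and without prep 4 only wago-1 and csr-1 passed, against 3.11% of all features. Without prep 1 the same 4 genes passed, against 17.6% of all features. All 5 measured germline genes were below 0 on every array, as were 29.4% of all features, and none of the broadly expressed genes was.

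**Figure D1:**
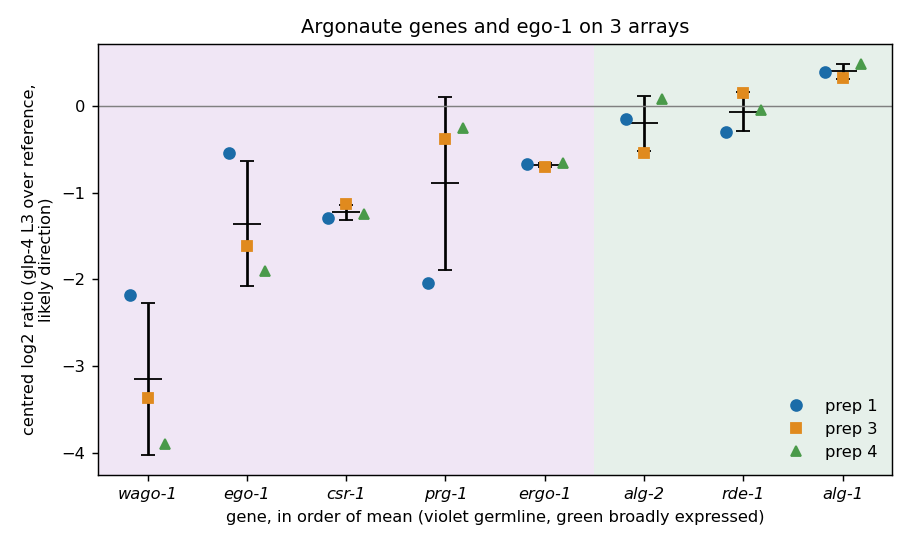
Centred log2 ratio (vertical axis, glp-4 L3 over reference in the likely direction) of the 8 measured genes, in order of their mean. Coloured points are the arrays of preps 1, 3 and 4, and black bars are the mean ± SD (n = 3); wago-1 has the lowest mean (-3.15) and alg-1 the highest (0.40), and prg-1 has 1 array far below the other two.

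The WAGO-class gene wago-1 (R06C7.1) encodes a germline Argonaute that carries secondary small RNAs and silences transposons and other targets. Its log2 ratio was -2.18, -3.37 and -3.90 on the arrays of preps 1, 3 and 4, so it was far below 0 on each array and least so with prep 1. The mean was -3.15 ± 0.88 (n = 3; 95% interval -4.02 to -2.28; limma adjusted p = 0.00636). Of the named genes, 85 had a lower mean. Its place was similar on each array: 1.02% of named genes lay lower with prep 1, 0.63% on the prep 3 array and 0.53% on the prep 4 array. None of the 16 germ cell markers had a lower mean, whereas 8 of the 10 oocyte markers did. Without prep 3 the mean was -3.04 and the gene narrowly missed the threshold (limma adjusted p = 0.0512).

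The polymerase gene ego-1 (F26A3.3) is needed for germline development and makes secondary small RNAs in germ cells. Its log2 ratios were -0.54 (prep 1), -1.62 (prep 3) and -1.91 (prep 4). All values were below 0, but that of prep 1 stood closer to 0 than the other two. The mean was -1.36 ± 0.72 (n = 3; 95% interval -2.11 to -0.61; limma adjusted p = 0.0373), which is 2.56-fold lower. The gene was among the lowest with preps 3 and 4, where 3.67% and 3.62% of named genes lay lower, and less so with prep 1, where 14.3% did. It passed without prep 1 (mean -1.76) and missed the threshold without prep 3 (adjusted p = 0.21) and without prep 4 (adjusted p = 0.142).

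The gene csr-1 (F20D12.1) encodes an essential Argonaute whose small RNAs match most genes expressed in the germ line and which acts in chromosome segregation. Its log2 ratios were -1.30 (prep 1), -1.13 (prep 3) and -1.25 (prep 4), nearly the same value on each array. The mean was -1.22 ± 0.09 (n = 3; 95% interval -1.63 to -0.82; limma adjusted p = 0.00941), which is 2.34-fold lower. Between 3.92% (prep 1) and 8.10% (prep 4) of named genes lay lower. Without prep 3 the mean was -1.27 and the gene missed the threshold (adjusted p = 0.0917).

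The gene ergo-1 (R09A1.1) encodes an Argonaute of the primary endogenous small interfering RNAs found in oocytes and embryos. Its log2 ratios were -0.67 (prep 1), -0.70 (prep 3) and -0.66 (prep 4), with the smallest spread of the set, over 2 averaged probes. The mean was -0.68 ± 0.02 (n = 3; 95% interval -1.08 to -0.28; limma adjusted p = 0.0435), which is 1.60-fold lower. Its 2 probes gave means of -0.72 and -0.64 and so differed little; tested alone, only the first passed (adjusted p = 0.0398 and 0.0533). All 16 germ cell markers had a lower mean than ergo-1. The call was close to the threshold: it was lost without prep 3 (adjusted p = 0.296), without prep 4 (adjusted p = 0.162) and with arrays scaled to the same spread (adjusted p = 0.0625).

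The Piwi gene prg-1 (D2030.6), whose protein binds the piRNAs that guard the germ line against foreign sequences, was less even. Its log2 ratios were -2.05 (prep 1), -0.38 (prep 3) and -0.25 (prep 4). All 3 values were below 0, but prep 1 lay apart from the others, on an array with the narrowest spread. The mean was -0.89 ± 1.00 (n = 3; 95% interval -1.86 to 0.08), and the gene did not pass (limma adjusted p = 0.165). With prep 1, 1.26% of named genes lay lower than prg-1, against 24.9% with prep 3 and 35.8% with prep 4. Without prep 1 the mean was -0.32 (adjusted p = 0.23). As with each measured gene of the set except ergo-1, prg-1 rests on a single probe.

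**Figure D2:**
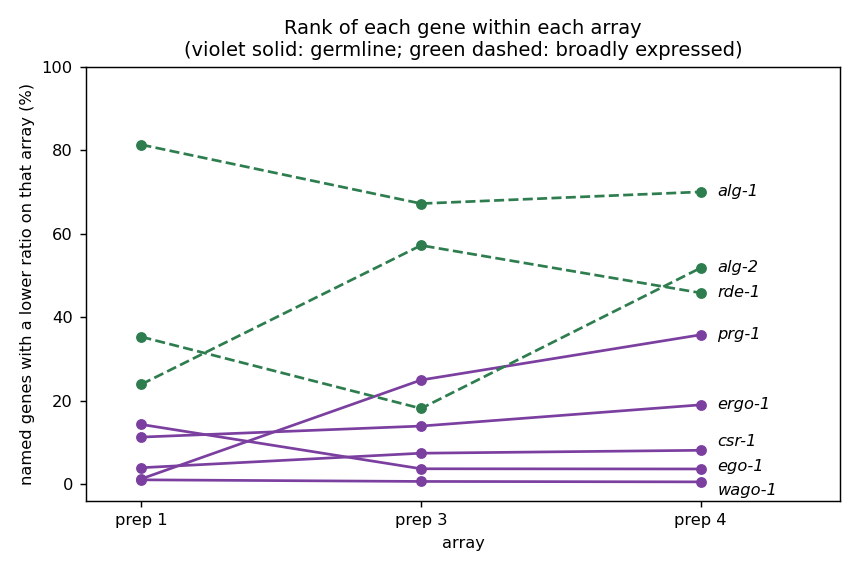
Share of the 14686 named genes (vertical axis, percent) whose ratio was lower than that of each gene, on the arrays of preps 1, 3 and 4; lines link the values of 1 gene and carry no order of time. Germline genes are violet and solid, broadly expressed genes green and dashed; wago-1 stays at or below 1.02%, while prg-1 moves from 1.26% with prep 1 to 35.8% with prep 4.

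The broadly expressed genes had means closer to 0 than the germline genes. By mean, 72.9% of named genes lay below alg-1, 33.1% below alg-2 and 42.9% below rde-1. The gene alg-1 (F48F7.1), a microRNA Argonaute needed for developmental timing, was at 0.39 with prep 1, 0.32 with prep 3 and 0.49 with prep 4. It was above 0 on each array, as were 29.1% of all features. The mean was 0.40 ± 0.09 (n = 3; 95% interval -0.0049 to 0.80), which did not pass (limma adjusted p = 0.145). Its paralog alg-2 (T07D3.7), the other main microRNA Argonaute, was at -0.14, -0.55 and 0.09 with preps 1, 3 and 4, on both sides of 0. The mean was -0.20 ± 0.32 (n = 3; 95% interval -0.69 to 0.29; adjusted p = 0.481). The gene rde-1 (K08H10.7), the Argonaute that receives primary small interfering RNAs from double-stranded RNA, was at -0.30, 0.15 and -0.04 with preps 1, 3 and 4. Its mean was -0.06 ± 0.23 (n = 3; 95% interval -0.51 to 0.38; adjusted p = 0.811). The intervals reach down to -0.69 for alg-2 and up to 0.80 for alg-1, so missing the threshold does not show that these genes were unchanged.

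The germline and the broadly expressed genes were then compared within each array. With prep 1 the 5 germline genes lay between -2.18 and -0.54 and the 3 broadly expressed genes between -0.30 and 0.39, with no overlap. With prep 4 the ranges were -3.90 to -0.25 and -0.04 to 0.49, again with no overlap. With prep 3 they overlapped, since alg-2 (-0.55) lay below prg-1 (-0.38). Of the 15 pairs of 1 germline and 1 broadly expressed gene, the germline gene was lower in 15 with prep 1, 14 with prep 3 and again 15 with prep 4.

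The median of the germline genes minus that of the broadly expressed genes was -1.15, -1.28 and -1.34 on the arrays of preps 1, 3 and 4, a mean of -1.25 ± 0.09 (n = 3). The germline median was the value of csr-1 on every array, so the small spread of this difference is partly that of a single gene. No test was made of it, because genes are not replicates and an exact sign-flip test over 3 arrays cannot give a two-sided p below 0.25. With wago-1 left out of the germline genes the mean difference was -0.98. The germline median of the 3-array means was -1.22 and the broad median -0.06, beside 0.03 for all named genes and -1.55 for the germ cell markers. The germ cell markers were low on the same arrays, with list medians of -1.61, -1.53 and -1.59 for preps 1, 3 and 4, and their part in the values of the germline Argonautes was not tested.

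In the order of means, wago-1 was lowest, followed by ego-1, csr-1, prg-1, ergo-1, alg-2, rde-1 and alg-1. The step from wago-1 to ego-1 was the clearest, with ego-1 higher by 1.79 ± 0.18 (SD of the within-array differences, n = 3) and higher on all 3 arrays. From ego-1 through csr-1 and prg-1 to ergo-1, each step between adjacent genes was within its spread, at 0.13 ± 0.77, 0.33 ± 0.94 and 0.21 ± 1.01. This holds for adjacent genes only. With preps 1, 3 and 4, csr-1 (-1.30, -1.13 and -1.25) was below ergo-1 (-0.67, -0.70 and -0.66) on every array. The step from ergo-1 to alg-2, which separates the germline from the broadly expressed genes, was 0.48 ± 0.30, in the same order on all arrays. The gene alg-2 did not differ from rde-1 beyond the spread (0.14 ± 0.48), and alg-1 lay above rde-1 by 0.46 ± 0.27 on all 3 arrays.

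The genes whose 3 values were nearest to those of wago-1, by Euclidean distance over the 3 arrays, were the major sperm protein genes msp-64 (distance 0.33), msp-40 (0.36) and msp-76 (0.39). Their means were -3.18 ± 0.67, -3.21 ± 0.67 and -3.17 ± 1.03. The msp genes are close copies of each other, so their probes cannot be read as separate. Nearest to alg-1 were pat-12 (distance 0.05; mean 0.41 ± 0.09), clc-13 (0.05; 0.39 ± 0.08) and C07H4.1 (0.06; 0.41 ± 0.07). None of these 3 passed the threshold.

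The rest of the Argonaute family shows how far the set stands for it. With the 13 other measured Argonautes there were 20 in all, of which 8 were lower, 1 was higher and 11 did not pass; the median of their means was -0.58. Among the 13, 5 were lower and 1 was higher, beside 8.37% and 8.26% of all features. The lowest was hrde-1, a nuclear Argonaute of inherited silencing in germ cells, at -2.08, -2.94 and -2.46 with preps 1, 3 and 4 (mean -2.49 ± 0.43; limma adjusted p = 0.00408). It was followed by alg-5, a microRNA Argonaute of the germ line, at -2.18 ± 0.38, and by wago-2 at -1.99 ± 0.65. None of the 13 had a lower mean than wago-1. Over all 20, the lower count was 10 without prep 1, 2 without prep 3 and 6 without prep 4. In those fits 17.6%, 1.08% and 3.11% of all features were lower.

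Of the microRNA Argonautes, alg-5 ranged from -2.59 to -1.83 over the arrays and alg-1 from 0.32 to 0.49, so their ranges did not overlap. The Argonautes of sperm, alg-3 (0.39 ± 0.55) and alg-4 (-0.55 ± 0.38), did not pass, and the 2 probes of alg-4 gave means of -0.97 and -0.13. The 1 higher gene was sago-1, a secondary Argonaute of RNA interference, at 0.79, 1.14 and 1.07 with preps 1, 3 and 4 (mean 1.00 ± 0.19; adjusted p = 0.0189), and it passed without prep 1 but not without prep 3 or 4. Its relative sago-2 was at 0.30 ± 0.18 without passing.

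The Piwi paralog prg-2 is close to prg-1 in sequence, so their probes may share signal. It was at -1.89, -1.35 and -1.01 with preps 1, 3 and 4 (mean -1.42 ± 0.45; adjusted p = 0.0148). Like prg-1 it was lowest with prep 1; there the 2 genes differed by 0.15, with prep 3 by -0.97 and with prep 4 by -0.75 (prg-2 minus prg-1). In contrast wago-1 and wago-2 were both lowest with prep 4, the array with the widest spread. On all 3 arrays wago-2 was above wago-1, by a mean of 1.16 ± 0.39. The gene alg-2 was below alg-1 on all 3 arrays, by a mean log2 difference of -0.60 ± 0.24 (alg-2 minus alg-1). Whether the probes of any of these pairs share signal was not tested.

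**Figure D3:**
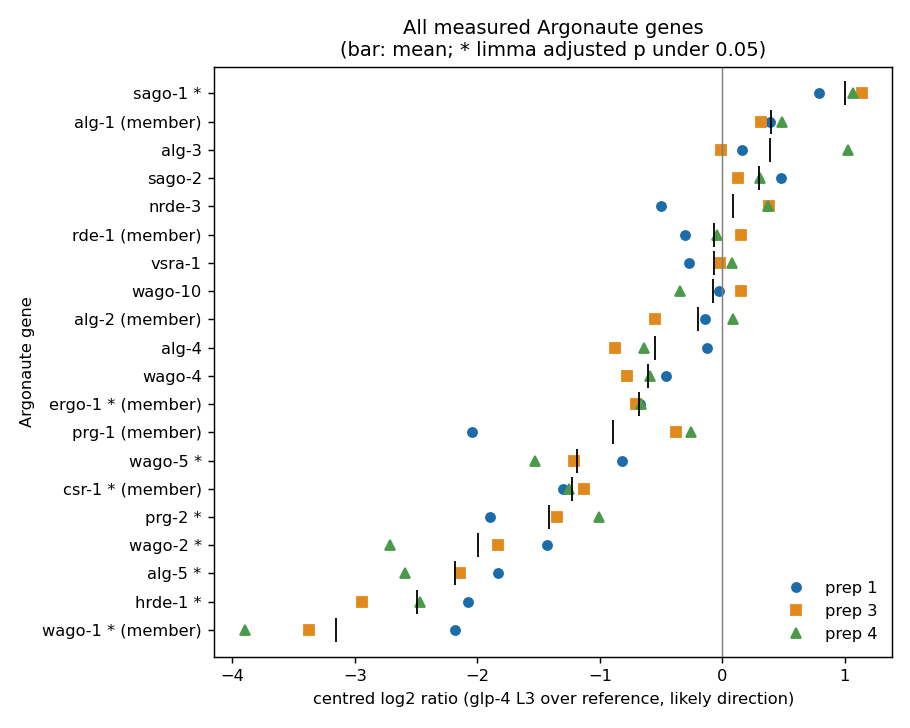
Centred log2 ratio (horizontal axis) of the 20 measured Argonaute genes on the arrays of preps 1, 3 and 4, ordered by mean (black bar); a star marks limma adjusted p under 0.05 and "member" the 7 measured Argonautes of the set. Of the 20 genes, 8 are lower and sago-1 alone is higher.

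Other genes of the small RNA pathways were taken from 7 lists that hold 73 genes, of which 63 were measured; 18 were lower and 2 were higher, with a median of -0.29, beside 8.37% and 8.26% of all features. The lower count was 22 without prep 1, 3 without prep 3 and 5 without prep 4, where 17.6%, 1.08% and 3.11% of all features were lower. Both other RNA-dependent RNA polymerase genes lay near 0: rrf-2 was at -0.01 ± 0.18 and rrf-3, which makes primary endogenous small interfering RNAs, at -0.11 ± 0.12, and neither passed. ego-1 was below rrf-3 on all 3 arrays, with rrf-3 higher by 0.29, 1.57 and 1.87 with preps 1, 3 and 4. Neither rrf-1 nor ppw-2 was analysed.

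Of the 7 lists, that of piRNA factors had the largest share past the threshold, 7 of 8 lower and 0 higher (list median -0.96). Of all features 8.37% were lower and 8.26% higher. The lowest gene of the list was tost-1, at -2.56 ± 0.37 (limma adjusted p = 0.00348). The others named by rule were tofu-7 (-1.27 ± 0.36), tofu-5 (-0.99 ± 0.17), which acts in piRNA transcription, and tofu-4 (-0.98 ± 0.36). The exception was prde-1, a factor of piRNA transcription, at 0.27 (prep 1), -0.73 (prep 3) and -0.74 (prep 4). Its sign with prep 1 was opposite to the other arrays. The list median lay below the value of prg-1 with preps 3 and 4 (-0.97 and -1.03) and above it with prep 1 (-0.82). With prep 1 left out 8 factors passed as lower, and with prep 3 or prep 4 left out only 1 did. The shares of all features called lower were 17.6%, 1.08% and 3.11% without preps 1, 3 and 4.

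The mutator complex amplifies secondary small RNAs. Beside 8.37% of all features lower and 8.26% higher, 4 of its 9 measured genes were lower and 0 higher (list median -0.69). These were rde-3, which adds nucleotides to the ends of target RNAs, at -1.22 ± 0.50, the endonuclease gene rde-8 at -1.16 ± 0.23, rde-2 at -0.86 ± 0.36 and the helicase gene smut-1 at -0.81 ± 0.19. The genes mut-7 (-0.63 ± 0.35) and mut-14 (-0.35 ± 0.26) did not pass. Of Dicer, its partners and the ERI factors, 1 of 11 was lower and 0 higher (list median -0.24), a share near the 8.37% of all features. It was rde-4, whose protein binds double-stranded RNA with Dicer, at -0.69 ± 0.14 (adjusted p = 0.0462). The Dicer gene dcr-1 was at -0.24 ± 0.29. No gene of these 2 lists passed without prep 3 or without prep 4, where 1.08% and 3.11% of all features were lower.

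The microRNA list, the partners of alg-1 and alg-2, had 1 of 7 lower and 1 higher, with a median of 0.08; over all features 8.37% were lower and 8.26% higher, so single calls in a list of this size are no result about the list. The gene drsh-1 for Drosha, which cuts primary microRNAs, was at -1.13 ± 0.12 (limma adjusted p = 0.0119), with its 2 probes at -0.98 and -1.29. The gene tsn-1, for a Tudor staphylococcal nuclease, was at 0.86 ± 0.06 (adjusted p = 0.0237). The genes ain-1 (-0.04 ± 0.15) and ain-2 (0.09 ± 0.25), whose proteins bind the microRNA Argonautes, did not pass. Neither drsh-1 nor tsn-1 passed without prep 3 or without prep 4, and without prep 1 the higher count was 2. Among other factors of RNA interference, transport and nuclear silencing, none of 13 passed in either direction (limma), and the list median was 0.04. At an unadjusted limma p under 0.05, 2 of the 13 were lower and 0 higher. By that rule 3560 of all 19580 features were lower and 3354 higher, so these 2 are no result about the list.

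**Figure D4:**
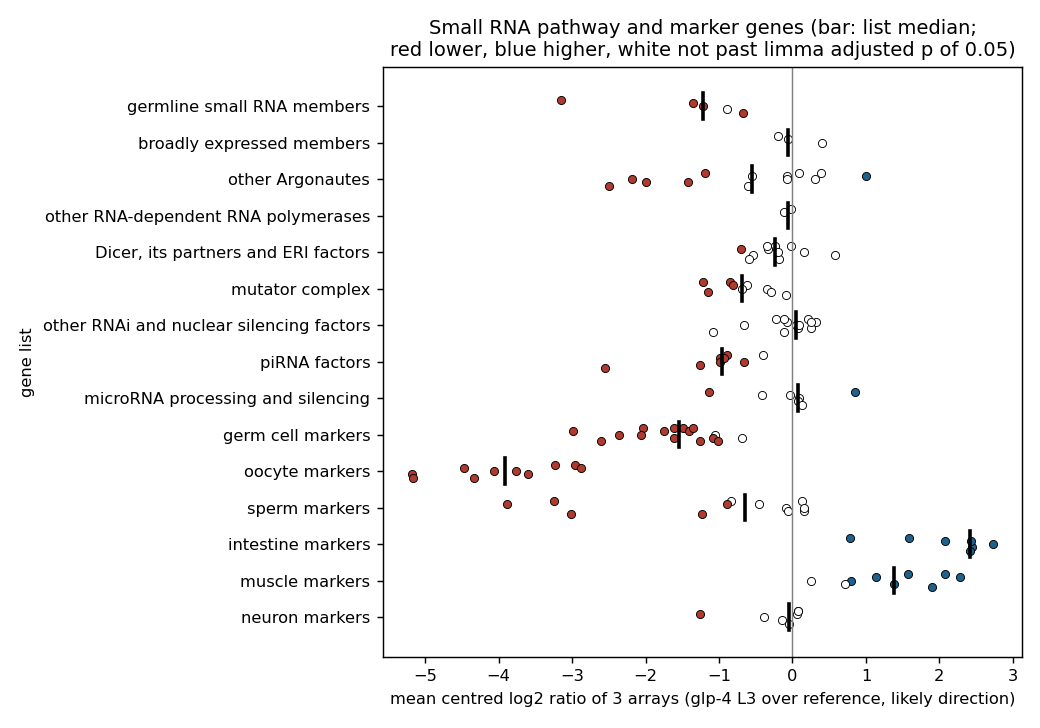
Mean centred log2 ratio of 3 arrays (horizontal axis) of each measured gene, by list, with the list median as a black bar; red genes are lower, blue genes higher and white genes not past the limma threshold. The germline members (median -1.22) lie near the piRNA factors (-0.96) and germ cell markers (-1.55), and the broadly expressed members (-0.06) near 0.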

How the data were processed

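The authors deposited a table of 21632 probes with a log2 ratio for each of 3 arrays. That the values are log2 was read from the deposited numbers: 100% of ratios below 1 were whole thousandths within a tolerance of 0.01 thousandths. The medians of the deposited log2 ratios were -0.0072, -0.0247 and -0.0262 for preps 1, 3 and 4, so the authors had not centred the arrays exactly on their medians. For background correction, normalization and dyes no source used here gives a method. The table holds no intensities, so probes near background could not be told from others; the precision is limited by 3 arrays.

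A platform annotation gave 1 gene for 16450 probes, several for 247 and none for 4935; through gene numbers 16360 matched RefSeq (WBcel235), and through accessions 8. Since the probes come with no build, coordinates are left out. Names mut-2 and cde-1 were read as rde-3 and cid-1. Array medians were subtracted, then a gene's probes were averaged within each array; probes with no gene or several stayed as features. The 19580 features measured on all arrays were tested against 0 with limma 3.58.1 in R 4.3.3 (lmFit, eBayes, Benjamini-Hochberg, two-sided), which treats the reference as 1 control RNA and leaves out its spread. The procedure was tested on simulated data.

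The members and lists were chosen with earlier results of these data known. Named beside the members were up to 4 genes past the threshold per pathway list and up to 2 others, the 3 genes nearest to the lowest and highest member, and up to 2 markers per list; sago-1, sago-2, rsd-3, nrde-2 and wago-4 were named after their values were seen. Alternatives were values as deposited, equal spread, quantile normalization, features on at least 2 arrays, single probes, a robust prior, array weights, a 2-fold limit and the omission of each prep.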

Additional observations from a re-analysis of the deposited data

How the results depend on the processing

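Of 81 values of the 8 genes under other settings, 73 stayed on the same side of the threshold, 8 kept the direction and lost the call, and no called value changed sign; rde-1, never called, turned to 0.06 with array weights and 0.05 without prep 1. The lost calls were those of ergo-1 with equal spread of the arrays (-0.72) and with its second probe alone (-0.64), and those of wago-1, csr-1, ego-1 and ergo-1 with preps left out. Over the 3 fits that leave out 1 prep, which have 2 arrays each, wago-1 ranged from -3.63 to -2.78, csr-1 from -1.27 to -1.19, ego-1 from -1.76 to -1.08 and ergo-1 from -0.69 to -0.67. Over the same 3 fits the number of members called lower ranged from 0 to 4, and of pathway genes from 3 to 22 lower and from 0 to 4 higher. In those fits the share of all features called lower ranged from 1.08% to 17.6%, and the share called higher is not given here. Array weights gave 25 lower and 3 higher pathway genes. The pathway genes called lower were 10 with equal spread and 10 with the 2-fold limit, which left 0 higher. For array weights, equal spread and the 2-fold limit the shares of all features called are not given here. Those counts therefore cannot be told from a general rise or fall in calls. The germline minus broad difference was -1.002 with each probe alone, where ergo-1 counts as 2 probes, and ranged from -1.31 to -1.21 over the preps left out. No paired analysis was possible because the 3 preps form a single group against a common reference. The array series as a random block was not run to a value, because limma's duplicateCorrelation gave none for 3 arrays; the fit without prep 1 is the value within a series. Most single genes rest on 1 probe.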

Other observations

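Some genes of the small RNA pathways had probes that gave different values. For wago-4, a germline Argonaute, one probe was at -1.01, -1.72 and -1.65 with preps 1, 3 and 4 (mean -1.46 ± 0.39; limma adjusted p = 0.0125 for the probe alone), and the other was at 0.09, 0.17 and 0.46 (mean 0.24 ± 0.20; adjusted p = 0.359). The average of both, -0.61 ± 0.16, did not pass (adjusted p = 0.065). For rsd-3, a gene of systemic RNA interference, one probe was at 0.21 with prep 1, -3.43 with prep 3 and -3.75 with prep 4, while the other lay between 0.08 and 0.19 on the 3 arrays. For nrde-2, of nuclear RNA interference, the probes were at 0.25, 1.00 and 1.33, and at 0.27, -0.43 and -0.46. The probes of rsd-3 and nrde-2 were close with prep 1 and apart with preps 3 and 4, whereas those of wago-4 were apart on all 3 arrays. Which part of each gene its probes cover was not used here, and the cause was not tested.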
